A study of Caenorhabditis elegans with 2 samples.

Results

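The cells described here are neuronal progenitors of early *Caenorhabditis elegans* embryos, chosen by the transcripts of 10 transcription factor genes that mark neural precursors. Of 905 cells in all, 100 were chosen (11%), 73 of 686 cells from *spr-5; met-2* mutants and 27 of 219 cells from Wild Type. Per cell, the share of its transcripts that came from *ngn-1*, *cnd-1*, *lin-32*, *hlh-3*, *hlh-14*, *ceh-36*, *ceh-5*, *eyg-1*, *pax-1* and *dmd-5* was divided by the mean of this share over all 905 cells. A cell was a progenitor when this relative share was at least 2.5 and rested on at least 2 transcripts. Transcripts were counted as unique molecular identifiers (UMIs), in which each captured 3' end counts once whatever the length of its gene.

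The mutant embryos were F1 progeny of hermaphrodites homozygous for *spr-5(b101)* on chromosome I and *met-2(n4256)* on chromosome III, so the embryos and their mothers both lacked the pair of enzymes. The reference was Wild Type, strain N2, with neither allele. Both groups were embryos, mostly of 100-200 cells, dissociated with chitinase, and each genotype gave 1 library of pooled embryos. SPR-5 is a histone demethylase acting on lysine 4 of histone H3, MET-2 a methyltransferase acting on lysine 9, and the study asked in which embryonic cells germline genes come on when both are lost. With 1 library per genotype no test between genotypes was possible, no p-values are given, and every interval is a 95% interval of counting error only. Differences between the genotypes and differences between the 2 preparations cannot be told apart.

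Neurons of *C. elegans* arise from many lineages of the embryo. Neural precursors transiently express proneural factors of the basic helix-loop-helix (bHLH) class, which pair with the E protein HLH-2 to turn on neural genes. The neurogenin NGN-1, the NeuroD homolog CND-1, the atonal homolog LIN-32 and the achaete-scute homologs HLH-3 and HLH-14 belong to this class. Homeodomain, Pax and DM domain factors such as CEH-36, CEH-5, EYG-1, PAX-1 and DMD-5 then act in some of the same precursors. Terminal selectors such as UNC-86 and LIN-11 later fix the identity of particular neurons.

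Depth differed between the libraries. The progenitors had a median of 714 UMIs in the mutants (415 to 4236) and of 1983 UMIs in Wild Type (890 to 5829), against 727 UMIs in other mutant cells and 2098 UMIs in other Wild Type cells. Summed, the progenitors held 82161 mutant and 68425 Wild Type UMIs. Of the Wild Type cells 18 had more than 10000 UMIs, and no progenitor was among them. The libraries shared 11 cell barcodes, and 2 Wild Type progenitors had a barcode that was also a mutant cell. In the progenitors the targeted genes gave few UMIs, *spr-5* 2 in the mutants against 6 in Wild Type and *met-2* 2 in the mutants against 4 in Wild Type, a depth at which no difference could be read. *mes-4*, the histone H3 lysine 36 methyltransferase, had 18 mutant and 10 Wild Type UMIs (ratio 1.5, interval 0.656 to 3.63), and *lsl-1*, a transcription factor gene of the germline, had 1 mutant UMI and 0 in Wild Type.

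Progenitors made up 10.6% of the mutant cells (8.43 to 13.2%) and 12.3% of Wild Type cells (8.28 to 17.4%). The intervals overlapped. With the rule on the 5 genes other than bHLH they did not, at 2.92% (1.79 to 4.47%) in the mutants and 8.68% (5.30 to 13.2%) in Wild Type. When 500 UMIs were drawn from every cell and the rule was applied again, 44 of 524 mutant cells (8.40%) and 20 of 219 Wild Type cells (9.13%) were chosen, and 162 shallower mutant cells were left out. Depth entered the choice itself, since 27 of the 73 mutant progenitors had only 2 UMIs of the 10 genes and no Wild Type progenitor had so few. Counting only cells with at least 3 such UMIs left 46 mutant progenitors (6.71%, 4.95 to 8.84%) and all 27 of Wild Type. Of the 84 progenitors with at least 500 UMIs, 52 were chosen again after thinning. The values just above the threshold were 2.51 in the mutants and 2.57 in Wild Type, and those just below it were 2.49, a mutant cell with 14 such UMIs of 5941, and 2.47.

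**Figure D1:**
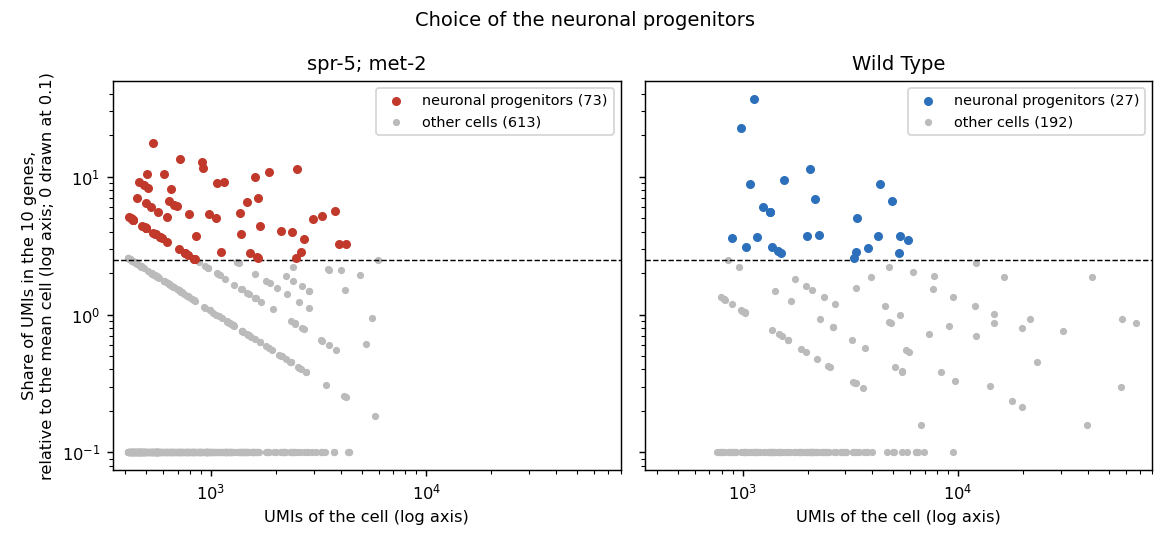
Each point is 1 cell, with its UMIs on the x axis and the share of them in the 10 genes, relative to the mean cell, on the y axis, for spr-5; met-2 at the left and Wild Type at the right (both axes logarithmic; cells with no such UMI are drawn at 0.1). The dashed line is the threshold of 2.5, and the 73 mutant and 27 Wild Type progenitors lie above it. The grey mutant cells above the line, 8 in number, had a single UMI of the 10 genes.

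The 10 genes were the basis of the choice, so their levels are given only as a description. Together they made up 5027 CPM (UMIs per 1e6 UMIs summed over the cells) in mutant progenitors and 5188 CPM in Wild Type progenitors. In the other cells they stood at 435 CPM in the mutants and 592 CPM in Wild Type. Body wall muscle cells, which should lack these transcripts, had 256 CPM in the mutants and 76.7 CPM in Wild Type. They were counted without progenitors, which left out 1 Wild Type cell that met both rules. Free RNA, read from the barcodes of up to 200 UMIs, held them at 860 CPM in the mutants and 1177 CPM in Wild Type. The progenitors were thus far above the free RNA and the other cells were below it in both libraries.

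Among the proneural bHLH genes, *hlh-14* (WBGene00001958, ce11 chromosome II, 5737785 to 5738895) gave the most UMIs. It had 216 UMIs in 42 of 73 mutant progenitors and 135 UMIs in 14 of 27 Wild Type progenitors, with up to 27 in a mutant cell and 36 in a Wild Type cell. *cnd-1* (chromosome III, 5240591 to 5244639) had 67 UMIs in 18 mutant cells and 31 UMIs in 7 Wild Type cells. *hlh-3* had 18 UMIs in 15 mutant cells and 5 in 3 Wild Type cells, and *ngn-1* had 11 in 8 mutant cells and 23 in 7 Wild Type cells. *lin-32* was rare, with 8 mutant and 4 Wild Type UMIs.

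The other factors fell on fewer cells. *dmd-5* (chromosome II, 5772054 to 5774220) had 53 UMIs in 16 mutant progenitors and 42 UMIs in 6 Wild Type progenitors. *ceh-5* (chromosome I, 9727169 to 9728034) had 20 UMIs in 5 mutant cells and 90 in 7 Wild Type cells, 39 of them in a single cell. *eyg-1* had 16 mutant and 23 Wild Type UMIs, *ceh-36* 4 mutant UMIs and 1 in Wild Type, and *pax-1* 0 mutant UMIs and 1 in Wild Type. At this depth the absence of *pax-1* cannot be read.

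A single gene often carried the choice. In 47 of the 100 cells all UMIs of the 10 genes came from 1 gene, 35 of them mutant and 12 Wild Type. The leading gene of a cell gave 85.8% of these UMIs. *hlh-14* led in 28 mutant and 8 Wild Type cells, *cnd-1* in 11 mutant and 3 Wild Type cells, *dmd-5* in 8 mutant and 6 Wild Type cells, and *ceh-5* in 2 mutant and 6 Wild Type cells. *ngn-1* led in 3 mutant and 2 Wild Type cells and *eyg-1* in 2 cells of each library, while *pax-1* led in none. In 16 mutant cells the lead was tied, which occurred in no Wild Type cell. The most frequent pairs in 1 cell were *hlh-3* with *hlh-14*, both achaete-scute homologs, in 11 cells, *hlh-14* with *dmd-5* in 10, *cnd-1* with *hlh-14* in 8, and *ngn-1* with *cnd-1* in 6. Pairs are limited by the few UMIs per cell, and cells with 1 gene may hold others below detection.

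**Figure D2:**
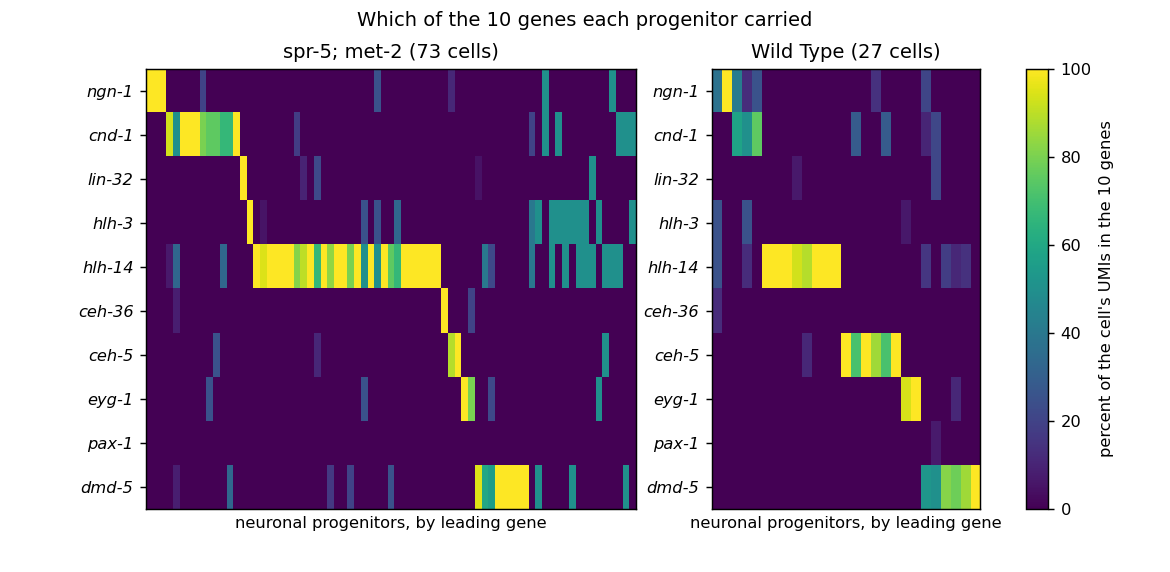
Columns are the 73 mutant progenitors (left) and the 27 Wild Type progenitors (right), ordered by leading gene with tied cells last, and rows are the 10 genes. Colour is the percent of the cell's UMIs in the 10 genes that each gene gave, and in 35 mutant and 12 Wild Type columns a single gene is at 100. hlh-14 leads the most columns in both.

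Genes outside the rule were then compared between progenitors and the other cells of the same library. Of 1611 genes with at least 20 UMIs in the progenitors, 22 (1.37%) were more than 2-fold higher and 22 (1.37%) more than 2-fold lower in both libraries, on the scale of log2(CPM + 10). Since the filter counted progenitor UMIs alone, genes scarce in progenitors could not enter these counts. Counted within each library, 71 (4.41%) were higher and 41 (2.55%) lower in the mutants, and 92 (5.71%) were higher and 72 (4.47%) lower in Wild Type. Those higher in both included *ztf-11*, *ncam-1*, *lin-11* and *unc-39*, and those lower in both included *nid-1*, *epi-1*, *dpy-17* and *unc-68*.

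*ztf-11*, a MYT1 family zinc finger factor that promotes neurogenesis by holding down non-neural genes (WBGene00009939, chromosome I, 9904303 to 9910545), was among the genes higher in progenitors of both libraries. In the mutants it had 536 CPM in progenitors and 143 CPM in other cells (ratio 3.74, 2.55 to 5.41). In Wild Type it had 701 CPM in progenitors and 258 CPM in other cells (ratio 2.72, 1.95 to 3.71). It was found in 29 of 73 mutant and 13 of 27 Wild Type progenitors. At 500 UMIs per cell it was in 26.3% of progenitors and 6.42% of other cells in the mutants, and in 29.6% of progenitors and 9.38% of other cells in Wild Type. Muscle cells as counted had it in 7.89% (median depth 874 UMIs) in the mutants and 4.55% (median depth 1466 UMIs) in Wild Type.

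*ncam-1*, which encodes a neural cell adhesion molecule homolog, had 962 CPM in progenitors and 375 CPM in other cells of the mutants (ratio 2.56, 1.96 to 3.31). In Wild Type it had 818 CPM in progenitors and 249 CPM in other cells (ratio 3.29, 2.41 to 4.42). *lin-11*, a LIM homeobox gene of sensory and interneurons, was 4.35 times as high in mutant progenitors (1.88 to 9.52) and 7.99 times in Wild Type (3.44 to 17.7), in 8 mutant and 3 Wild Type cells. The NK-2 class homeobox gene *ceh-27* had ratios of 3.83 (2.39 to 6.01) in the mutants and 3.26 (2.02 to 5.07) in Wild Type, in 10 mutant and 9 Wild Type cells. *unc-39*, a sine oculis family homeobox gene (chromosome V, 14373074 to 14375881), had ratios of 5.09 (3.67 to 7.02) in the mutants and 2.27 (1.36 to 3.61) in Wild Type. For these 4 genes the intervals lay above 1 in both libraries under the rule on all 10 genes. Much of the Wild Type signal came from single cells. The richest Wild Type progenitor for each gene gave 12 of the 21 UMIs of *unc-39*, 7 of 11 of *lin-11*, 11 of 25 of *ceh-27* and 19 of 56 of *ncam-1*. In the mutants it gave 20 of the 65 UMIs of *unc-39*, 2 of 11 of *lin-11*, 7 of 30 of *ceh-27* and 11 of 79 of *ncam-1*. Ratios without these cells were not computed. With the 5 bHLH genes *lin-11* turned to -2.07 in Wild Type on the log2 scale, and with the 5 other genes *unc-39* turned to -1.93 in the mutants and -0.73 in Wild Type.

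*egl-1*, whose BH3-only protein triggers programmed cell death, had ratios of 2.37 (1.13 to 4.61) in the mutants and 3.72 (1.90 to 6.81) in Wild Type. It came from few cells, 7 mutant and 3 Wild Type progenitors. *nuc-1*, the lysosomal DNase II that degrades the DNA of dead cells, was found in 8 progenitors of each library. Its ratios were 3.46 (1.97 to 5.89) in the mutants and 2.23 (1.51 to 3.19) in Wild Type. The Wild Type ratio rested largely on 1 cell, which gave 19 of the 35 *nuc-1* UMIs of Wild Type progenitors. In the mutants the richest progenitor gave 6 of 21. Ratios of *nuc-1* without these cells were not computed. *hex-2*, a hexosaminidase gene, had ratios of 2.46 (1.25 to 4.57) in the mutants and 3.31 (1.11 to 8.27) in Wild Type.

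Of the other 12 genes of the 20 with the largest smaller ratio, 3 encode F-box proteins. *fbxb-65* had ratios of 5.54 in the mutants and 6.37 in Wild Type, *fbxb-37* of 4.12 in the mutants and 2.83 in Wild Type, and *fbxb-35* of 3.55 in the mutants and 2.49 in Wild Type. Members of this family are close in sequence, and reads shared between copies may have been split by the counting. The arrestin domain gene *arrd-1* had ratios of 3.25 in the mutants and 2.2 in Wild Type, the ligand-gated channel gene *lgc-27* of 2.83 in the mutants and 6.04 in Wild Type, and *tcl-2*, needed for an asymmetric division in the tail, of 2.34 in the mutants and 2.17 in Wild Type. *ari-1.4*, of the ariadne family, had ratios of 2.26 in the mutants and 2.17 in Wild Type. *C06E7.4*, *C24H12.1*, *Y62E10A.24*, *C01G10.9* and *R11G1.7*, to which no role is given here, ran between 2.41 and 2.90 in the mutants and 2.18 and 3.05 in Wild Type. Only *R11G1.7*, with 5 UMIs in mutant progenitors, had an interval that included 1 (0.708 to 7.06). The 20 genes were picked by these ratios, and their intervals are not adjusted for that choice.

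**Figure D3:**
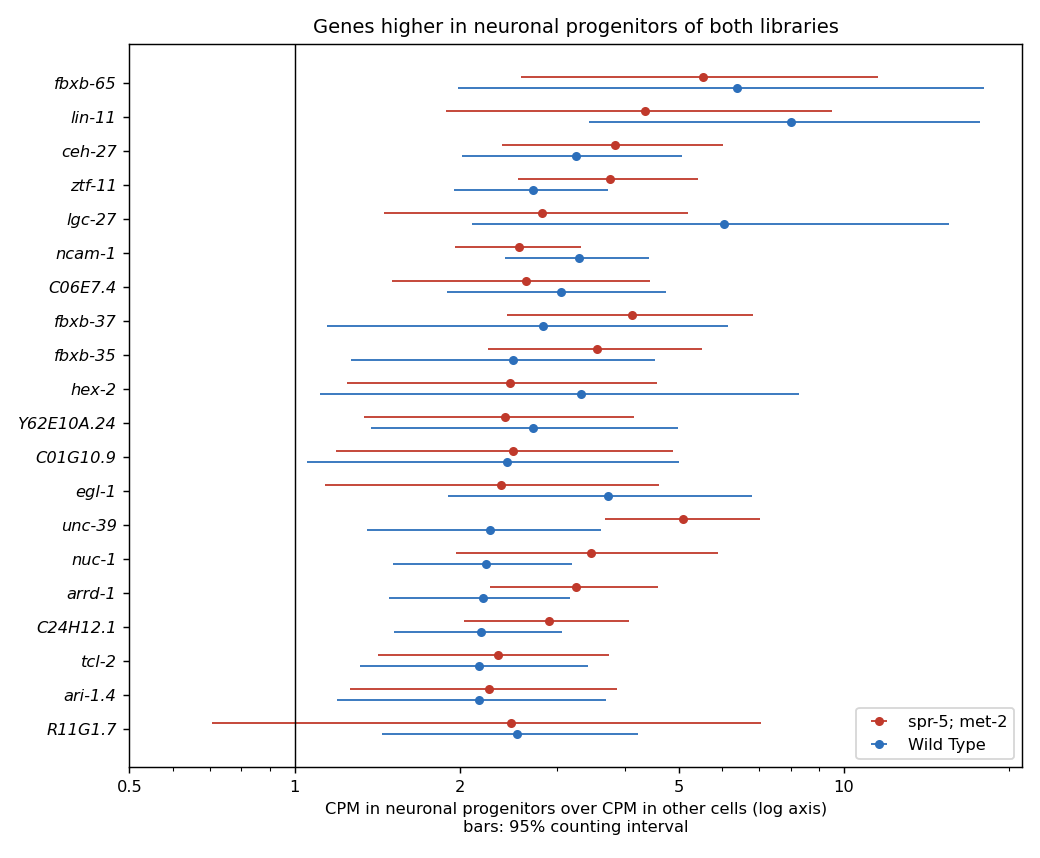
The x axis is the CPM in neuronal progenitors over the CPM in the other cells of the same library (log axis), with the 95% counting interval as a bar, for the 20 genes with the largest smaller ratio; spr-5; met-2 is red and Wild Type blue. The genes were picked by these ratios, so every point lies right of 2, and the intervals are not adjusted for that choice. Of the intervals only that of R11G1.7 in the mutants crosses 1.

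Among the genes lower in both libraries, *nid-1*, the basement membrane nidogen, had 280 CPM in progenitors and 1371 CPM in other cells of the mutants (ratio 0.204, 0.129 to 0.308), and 190 CPM in progenitors and 841 CPM in other cells of Wild Type (ratio 0.226, 0.120 to 0.388). *epi-1*, a laminin alpha chain gene, had ratios of 0.365 in the mutants and 0.358 in Wild Type, and *mig-6*, which encodes a papilin of the basement membrane, of 0.273 in the mutants and 0.183 in Wild Type. The collagen gene *dpy-17* had ratios of 0.336 (0.243 to 0.453) in the mutants and 0.0901 (0.0465 to 0.158) in Wild Type. *unc-68*, the ryanodine receptor of muscle, had ratios of 0.346 in the mutants and 0.195 in Wild Type.

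Gene lists described the same cells more broadly. The neurogenic partners (15 genes) had a summed ratio of progenitors over other cells of 1.84 (1.55 to 2.18) in the mutants and 1.67 (1.40 to 1.97) in Wild Type. The interval included 1 in the mutants with the rule on the 5 genes other than bHLH (1.25, 0.934 to 1.64) and in Wild Type after thinning to 500 UMIs (1.26, 0.727 to 2.07). Over the 5 of them with enough UMIs the median log2 ratio was 0.49 in the mutants and 0.81 in Wild Type, against 0.20 in the mutants and 0.16 in Wild Type over all 1611 genes. *hlh-2*, the E protein partner of the proneural factors, stood at 414 CPM in mutant progenitors, against 292 CPM in other mutant cells, and at 365 CPM in Wild Type progenitors, against 233 CPM in other Wild Type cells. The neuron identity regulators (35 genes) had ratios of 1.33 (1.15 to 1.53) in the mutants and 1.96 (1.69 to 2.27) in Wild Type. Of the 8 with enough UMIs, 6 were over 2-fold higher in the mutants, against 4.41% of all genes, and 3 in Wild Type, against 5.71%. None was over 2-fold lower, but genes entered these counts only with at least 20 UMIs in progenitors. That filter favours genes that are high there. Several terminal selectors, *mec-3*, *ttx-3*, *che-1*, *ceh-14* and *unc-4* among them, had no UMI in any progenitor.

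The cell cycle list (34 genes) was higher in progenitors in both libraries, with ratios of 1.34 (1.24 to 1.45) in the mutants and 1.30 (1.21 to 1.40) in Wild Type. *cyb-3*, a B-type cyclin gene, had 706 CPM in mutant progenitors against 423 CPM in other mutant cells, and 1330 CPM in Wild Type progenitors against 891 CPM in other Wild Type cells. The asymmetric division gene *ham-1*, which acts in neuroblasts, had 815 CPM in mutant progenitors against 419 CPM in other mutant cells, and 804 CPM in Wild Type progenitors against 403 CPM in other Wild Type cells. The differentiating neuron list, of synaptic and peptide genes, had intervals that included 1, with ratios of 0.898 (0.727 to 1.10) in the mutants and 1.21 (0.872 to 1.63) in Wild Type. These calls depended on the rule and on thinning. In Wild Type the differentiating neuron list was at 1.73 (1.28 to 2.29) with the rule on the 5 genes other than bHLH and at 1.66 (1.16 to 2.31) at a threshold of 3.5. The cell cycle list in Wild Type was at 1.02 (0.934 to 1.11) with the 5 other genes. In the mutants the differentiating neuron list was at 0.654 (0.418 to 0.979) after thinning to 500 UMIs.

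Markers of other cell types were mostly lower. The body wall muscle list (16 genes) had ratios of 0.373 (0.320 to 0.433) in the mutants and 0.504 (0.421 to 0.599) in Wild Type. The hypodermis list (16 genes) had ratios of 0.482 (0.411 to 0.563) in the mutants and 0.176 (0.136 to 0.223) in Wild Type. These values depended on the rule, since the 5 bHLH genes alone gave 0.805 in the mutants and 0.92 in Wild Type and the 5 other genes alone 0.949 in the mutants and 0.945 in Wild Type. The pharynx list was not lower, at 1.27 (0.999 to 1.61) in the mutants and 1.05 (0.746 to 1.43) in Wild Type. In the mutants it was at 1.57 (1.28 to 1.90) at a threshold of 2. It was there at 1.33 (1.05 to 1.66) with the 5 bHLH genes and at 1.59 (1.16 to 2.15) with the 5 other genes. In the progenitors of the 2 clusters that held the most progenitors it was at 0.682 in the mutants and 0.703 in Wild Type. That setting was chosen after seeing the data. Glial genes gave 17 mutant and 15 Wild Type UMIs, intestinal genes 2 mutant UMIs and 0 in Wild Type, and genes of other mesoderm 5 mutant UMIs and 1 in Wild Type. Germline genes had ratios of 0.674 in the mutants and 0.212 in Wild Type. Ribosomal protein genes made up 5.60% of mutant and 6.81% of Wild Type progenitor UMIs, against 6.94% in other mutant cells and 10.6% in other Wild Type cells.

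Cells that met the same kind of rule for another tissue were 21 of 73 mutant progenitors (28.8%) and 4 of 27 Wild Type progenitors (14.8%), against 264 of 613 other mutant cells (43.1%) and 49 of 192 other Wild Type cells (25.5%). Of the mutant ones 12 met the pharynx rule, 6 that of differentiating neurons and 3 that of hypodermis, and none met that of muscle. Among the other mutant cells 11.09% met the pharynx rule, 12.1% that of differentiating neurons, 11.7% that of hypodermis and 12.4% that of muscle. In Wild Type 3 progenitors met the pharynx rule and 1 that of muscle, against 8.33% and 11.5% of the other Wild Type cells.

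Progenitors were spread over several clusters when all 905 cells were clustered without the 10 genes. The 2 clusters with the most held 39 of 73 mutant and 21 of 27 Wild Type progenitors. The first, led by *ins-2*, *ceh-8*, *ceh-6*, *lin-11* and *pros-1*, held 25 mutant and 11 Wild Type progenitors among its 103 cells (31.6% of its mutant and 45.8% of its Wild Type cells). The second, led by *unc-39*, *nuc-1*, *sptf-1* and *sem-2*, held 14 mutant and 10 Wild Type progenitors among 94 cells. The third was led by *nos-2*, *pos-1*, *cey-3* and *deps-1*, which are genes of the germline and of maternal RNA. It held 11 mutant and 1 Wild Type progenitors among its 108 cells (11.5% of its mutant and 8.33% of its Wild Type cells). These shares were near or below the share of progenitors in all 905 cells (11%). The fourth, led by the cilium genes *arl-3*, *mks-5* and *ccep-290*, held 7 mutant progenitors and had 31 mutant cells and 1 Wild Type cell in all. Cluster sizes are not compared between genotypes.

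The nearest neighbours of a progenitor were progenitors more often than those of other cells, but most were not. Among the 15 nearest cells, a median of 26.7% were progenitors around mutant progenitors and 6.67% around other mutant cells, and 20% around Wild Type progenitors and 0% around other Wild Type cells. Progenitors were 11% of all cells. Of the mutant progenitors 5 (6.85%) had no progenitor among these neighbours, against 238 of 613 other mutant cells (38.8%), and in Wild Type 3 of 27 (11.11%) had none, against 103 of 192 (53.6%).

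The progenitors were then grouped by the gene that led in each cell, and 42 other genes were compared between each of 6 groups and the remaining progenitors. Of the 252 comparisons 24 intervals lay above 1 and 20 below it. The intervals are not adjusted for their number and treat UMIs of the same cell as independent. The groups were taken over both libraries.

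Cells led by *hlh-14* (28 mutant and 8 Wild Type) had *unc-39* at 1123 CPM, against 181 CPM in the other progenitors (ratio 6.2, 3.56 to 11.4). The 70 UMIs came from 7 mutant and 2 Wild Type cells, with up to 20 in 1 cell. *nuc-1* stood at 690 CPM against 147 CPM (ratio 4.68, 2.47 to 9.49), in 6 mutant and 3 Wild Type cells. Of its 43 UMIs 19 came from 1 cell. *ztf-11* had 802 CPM against 476 CPM (ratio 1.69, 1.1 to 2.6). *egl-1*, with 2 UMIs in these 36 cells, had a ratio of 0.118 (0.0135 to 0.475), and *lin-11* of 0.142 (0.0160 to 0.583).

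Cells led by *cnd-1* (11 mutant and 3 Wild Type) had *unc-86* at 731 CPM, against 151 CPM in the other progenitors (ratio 4.85, 2.40 to 9.76). *unc-86* is the POU homeobox selector of many sensory neurons, and the 18 UMIs came from 3 mutant cells and 1 Wild Type cell. *ast-1*, an ETS factor of dopaminergic neurons, had 8 UMIs in 2 of these cells (ratio 13.7, 3.28 to 79.9), and 6 of them were in 1 Wild Type cell. *zag-1*, a zinc finger homeobox factor, had 8 UMIs in 4 (ratio 2.93, 1.06 to 7.47), with up to 4 in 1 cell. *unc-39* and *nuc-1* were low, at 3 UMIs and 1 UMI.

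Cells led by *dmd-5* (8 mutant and 6 Wild Type) carried most of the *lin-11*. It was in 8 of 14 of them, 5 mutant and 3 Wild Type, at 642 CPM, and in 3 of the other 86 progenitors, at 32.7 CPM (ratio 19.7, 6.47 to 79.8). *tab-1*, a homeobox gene of neurons, had 11 UMIs in 3 of the cells (ratio 12, 3.56 to 51.7). Of these 10 were from 2 Wild Type cells, and 8 lay in 1 cell. *tcl-2* had a ratio of 2.81 (1.46 to 5.26) and *ceh-27* of 1.95 (1.03 to 3.55), while *unc-39* had 1 UMI. A single cell gave 8 of the 18 UMIs of *tcl-2*, and likewise 11 of the 17 UMIs of *ceh-27* came from 1 cell. Wild Type cells held 14 of the *tcl-2* and 15 of the *ceh-27* UMIs.

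Cells led by *ceh-5* (2 mutant and 6 Wild Type) had *ceh-32*, a homeobox gene of the head, in 6 of 8 cells at 1425 CPM, against 135 CPM in the other progenitors (ratio 10.6, 4.90 to 22.2). *sox-2*, a SoxB factor of neural precursors, was also in 6 of 8, at 1731 CPM against 220 CPM (ratio 7.86, 4.08 to 14.7). *ceh-43*, a Dlx homolog, was at 1120 CPM against 391 CPM, all of it from 4 Wild Type cells. The mutant cells gave 1598 UMIs and the Wild Type cells 8224 UMIs to this group.

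**Figure D4:**
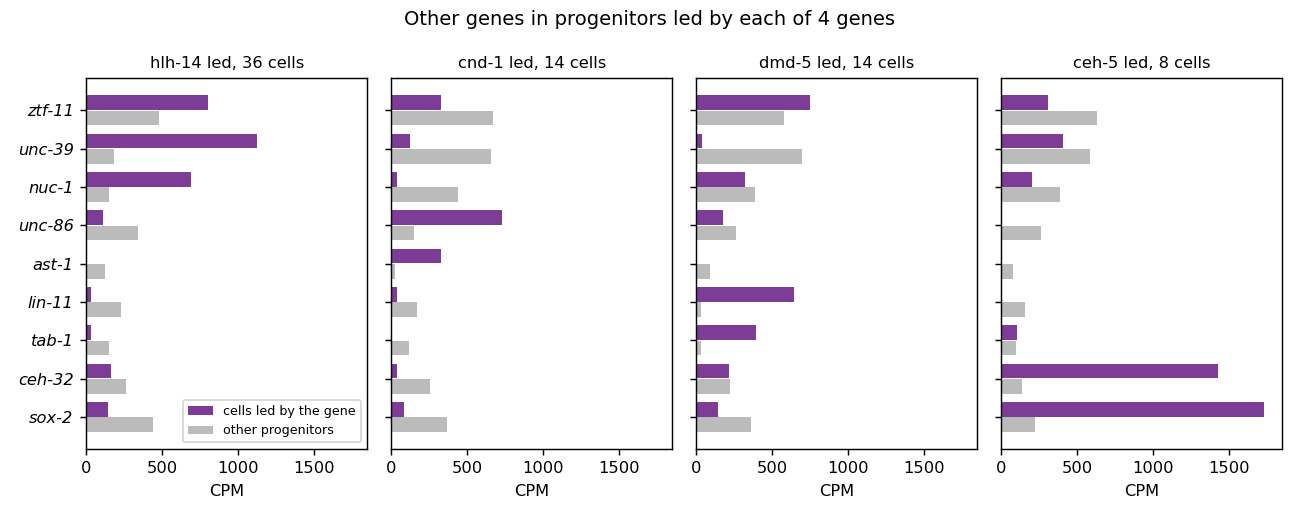
Bars are the CPM (linear axis from 0) of other genes in progenitors led by hlh-14, cnd-1, dmd-5 or ceh-5 (purple) and in the remaining progenitors (grey), over both libraries. unc-39 and nuc-1 stand out in hlh-14 cells, unc-86 and ast-1 in cnd-1 cells, lin-11 and tab-1 in dmd-5 cells, and ceh-32 and sox-2 in ceh-5 cells. Some of these bars rest largely on 1 cell, which gave 6 of 8 UMIs for ast-1, 8 of 11 for tab-1 and 19 of 43 for nuc-1.

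Between the genotypes, 170 of 1611 genes (10.6%) were more than 2-fold higher in mutant progenitors and 144 (8.94%) more than 2-fold lower. In the other cells of the same libraries 85 (5.28%) of the same genes were more than 2-fold higher in the mutants and 105 (6.52%) more than 2-fold lower, from 649897 mutant and 944765 Wild Type UMIs. The median log2 ratio over all genes was 0.09 in progenitors and 0.03 in other cells. The part of free RNA in these ratios was not tested.

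For the neurogenic and identity lists the intervals between the genotypes included 1 under the rule on all 10 genes. The neurogenic partners stood at 2045 CPM in mutant progenitors and 2236 CPM in Wild Type progenitors (ratio 0.914, 0.730 to 1.15). Of the 5 with enough UMIs none was over 2-fold higher and 1, *hlh-16*, over 2-fold lower. *ztf-11* had a ratio of 0.763 (0.495 to 1.17) and *hlh-2* of 1.13 (0.656 to 1.98), while *sox-2* stood at 219 CPM in mutant and 438 CPM in Wild Type progenitors (ratio 0.4997, 0.262 to 0.926). The identity regulators stood at 2726 CPM in mutant and 2996 CPM in Wild Type progenitors (ratio 0.910, 0.750 to 1.11). With the rule on the 5 genes other than bHLH the neurogenic list was at 0.631 (0.453 to 0.868), and with the 5 bHLH genes the identity list turned to 1.31 (1.08 to 1.59). In the 2 main clusters the identity list was at 0.778 (0.611 to 0.986). Of the 8 identity regulators with enough UMIs, *unc-86* (3.02, 1.35 to 7.64) and *egl-46* (3.75, 1.23 to 15.2) were over 2-fold higher. This list had a ratio of 1.34 in the other cells (1.25 to 1.45).

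*hlh-16*, a bHLH gene, had 0 UMIs in mutant progenitors and 21 in Wild Type, from 4 cells, 11 of them in 1 cell, which gives an upper limit of 0.160 for the ratio. Without that cell 10 Wild Type UMIs were left and the limit was 0.354. The other cells had 44 mutant and 83 Wild Type UMIs, a ratio of 0.771 (0.522 to 1.12).

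Cell cycle transcripts were lower in mutant progenitors, at 9688 CPM against 12642 CPM in Wild Type (ratio 0.766, 0.695 to 0.845). The other cells had the same kind of difference (0.743, 0.718 to 0.770). Of 27 genes with enough UMIs 4 were over 2-fold lower and none higher, with a median log2 ratio of -0.41 against 0.09 over all genes. *cyb-3* had a ratio of 0.531 (0.375 to 0.746) and the replication helicase gene *mcm-7* of 0.586 (0.41 to 0.833), while *pcn-1* (0.779) and *rnr-2* (1.10) had intervals that included 1. In the progenitors of the 2 main clusters the list ratio was 0.947 (0.836 to 1.07).

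Axon guidance genes were 1.22 times as high in mutant progenitors (1.07 to 1.38) and 1.95 times in the other cells (1.87 to 2.03). The progenitor ratio was 1.06 (0.897 to 1.24) in the 2 main clusters and 1.90 (1.34 to 2.75) after thinning to 500 UMIs. *unc-33*, a CRMP homolog of axon outgrowth, had 633 CPM in mutant and 307 CPM in Wild Type progenitors (ratio 2.06, 1.22 to 3.60), while the ankyrin gene *unc-44* had 0.833 (0.619 to 1.12). Differentiating neuron genes stood at 1290 CPM in mutant and 672 CPM in Wild Type progenitors (ratio 1.92, 1.35 to 2.78), with 2.58 (2.31 to 2.87) in the other cells. The interval included 1 after thinning to 500 UMIs (1.26, 0.570 to 3.07), at a threshold of 3.5 (1.38, 0.921 to 2.11) and with the 5 genes other than bHLH (1.48, 0.992 to 2.22). Free RNA had 1175 CPM of this list in the mutants and 571 CPM in Wild Type. *snb-1*, the synaptobrevin gene, had 18 mutant and 16 Wild Type UMIs and a ratio of 0.937 (0.451 to 1.96).

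Cilium genes showed the largest list ratio under the rule on all 10 genes, but not with the 5 bHLH genes, the 5 other genes or the 2 main clusters, where the list of germline genes that the study selected was at 9.23, 8.03 and 10.1 and the cilium list at 5.81, 4.78 and 4.3. Mutant progenitors had 91 UMIs over 27 of the 33 genes (1108 CPM) and Wild Type progenitors 5 UMIs over 3 genes (73.1 CPM), a ratio of 15.2 (6.26 to 47.8), against 5.75 (4.73 to 7.02) in the other cells. No gene of the list reached 20 UMIs. Of the 91 UMIs 68 lay in the 7 progenitors of the cluster led by cilium genes, and in the progenitors of the 2 main clusters the ratio was 4.3 (1.52 to 14.9). *arl-3*, a small GTPase of cilia, had 13 mutant UMIs in 8 cells, and *mks-5*, of the ciliary transition zone, 11 in 6. Neither had a UMI in Wild Type progenitors. Free RNA had 599 CPM of the list in the mutants and 167 CPM in Wild Type.

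Germline genes were also higher. A list of 25 germline genes that the study had selected from these same libraries as higher in a somatic cluster is not independent evidence of its direction. It had 121 UMIs in mutant progenitors (1473 CPM, in 46 of 73 cells) and 12 in Wild Type progenitors (175 CPM, in 9 of 27 cells), a ratio of 8.40 (4.64 to 16.7). The other cells had 3.98 (3.54 to 4.48). The UMIs were spread thinly, since 24 of the 25 genes were seen in mutant progenitors and no cell had more than 10. *T08G11.1* had 19 mutant and 2 Wild Type UMIs (7.91, 1.91 to 70), *imph-1* 7 mutant UMIs and 1 in Wild Type, *glh-2* 10 mutant UMIs and 1 in Wild Type, and the Argonaute gene *wago-1* 8 mutant UMIs and 0 in Wild Type. Free RNA held the list at 1460 CPM in the mutants, about the level of the mutant progenitors, and at 465 CPM in Wild Type.

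A list of 15 germline markers from general knowledge gave 35 mutant and 3 Wild Type UMIs (ratio 9.72, 3.06 to 49.4), with 3.06 (2.58 to 3.65) in the other cells. The interval included 1 after thinning (4.09, 0.567 to 179) and with the 5 genes other than bHLH (3.14, 0.842 to 14.3), and with the 5 bHLH genes the ratio was 42.3 (7.24 to 1707). The germ granule helicase genes *glh-1* (13 mutant UMIs and 1 in Wild Type) and *glh-2* carried most of it, and *glh-2* and *glh-4* belong to both lists. *pgl-1*, *nos-1*, *meg-1*, *meg-2*, *xnd-1* and *pie-1* had no UMI in progenitors of either library. The free RNA level was 573 CPM in the mutants and 176 CPM in Wild Type, above the progenitors (426 CPM in the mutants and 43.8 CPM in Wild Type). Transcripts of the maternal list were at 536 CPM in mutant and 146 CPM in Wild Type progenitors (ratio 3.66, 1.82 to 8.17), with 1.78 (1.54 to 2.05) in the other cells and with free RNA at 644 CPM in the mutants and 404 CPM in Wild Type.

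Hypodermis genes stood at 2069 CPM in mutant progenitors and 994 CPM in Wild Type progenitors (ratio 2.08, 1.56 to 2.80). Of the 170 mutant UMIs 51 lay in 3 progenitors (7995 CPM) of a cluster whose leading genes included *sqt-3* and *dpy-14*. That cluster held 0 Wild Type progenitors. In the first cluster the list was at 1855 CPM in mutant and 1274 CPM in Wild Type progenitors, and in the second at 1470 CPM in mutant and 551 CPM in Wild Type progenitors. In the other cells the ratio was 0.758 (0.724 to 0.794), and 0.946 (0.893 to 1.002) without the cells over 10000 UMIs. *noah-1*, a zona pellucida domain protein of the embryonic sheath, had 49 mutant and 5 Wild Type UMIs (8.16, 3.27 to 26.2), *dpy-17* 45 mutant and 12 Wild Type UMIs (3.12, 1.62 to 6.49), and *sqt-3* 14 mutant UMIs and 1 in Wild Type. Of the regulators in the list, *lin-26* had 9 mutant and 8 Wild Type UMIs, *nhr-25* 11 mutant and 8 Wild Type UMIs, and *egl-18* 11 mutant and 20 Wild Type UMIs (ratio 0.458, 0.198 to 1.003). Free RNA held this list at 3947 CPM in the mutants and 2996 CPM in Wild Type, above the progenitors of both. With the rule on the 5 bHLH genes the ratio turned to 0.673 (0.577 to 0.785), and with the 5 other genes to 0.759 (0.616 to 0.931).

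Among single genes, those highest in mutant progenitors were led by *C06G1.2*, with 84 mutant UMIs and 0 in Wild Type, which gives a lower limit of 18.6 for the ratio. Of these 69 came from 1 cell of 548 UMIs, and without it 15 UMIs in 3 cells were left and the limit was 3.01. *far-1*, a fatty acid and retinol binding protein gene, had 28 mutant UMIs in 15 cells and 1 Wild Type UMI (ratio 23.3, 3.86 to 954), and 21.6 in the other cells. *hbl-1*, the hunchback homolog that times development, had 22 mutant UMIs and 1 in Wild Type, as did *dig-1*, a giant matrix protein gene, and *morc-1*, a chromatin ATPase gene, had 20 mutant UMIs and 1 in Wild Type. The ratios of these 3 were 18.3, 18.3 and 16.7, with lower limits of 2.96, 2.96 and 2.66. Of the *dig-1* UMIs 10 came from 1 cell, without which its ratio was 10.3 and the lower limit 1.53. Outside the progenitors the ratios of the 3 genes were 4.45, 15.01 and 2.53.

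*dpy-14*, an embryonic collagen gene, had 64 UMIs in 33 mutant progenitors (779 CPM) and 5 UMIs in 3 Wild Type progenitors (73.1 CPM), a ratio of 10.7 (4.34 to 33.9). In the other cells it was 0.763 (0.720 to 0.809), and 0.951 (0.884 to 1.02) without the largest barcodes. Free RNA had 2390 CPM in the mutants and 1886 CPM in Wild Type, so both groups of progenitors lay below it. On the log2 scale *dpy-14* turned to -1.33 between the genotypes with the rule on the 5 bHLH genes and to -0.028 with the 5 other genes. *fasn-1*, the fatty acid synthase gene, had 27 mutant and 2 Wild Type UMIs (ratio 11.2, 2.83 to 97.6), and *inos-1*, of inositol synthesis, 36 mutant and 3 Wild Type UMIs (ratio 9.99, 3.16 to 50.7). *ZK1067.2* had 22 mutant and 2 Wild Type UMIs (ratio 9.16, 2.25 to 80.4), *F57A8.1* 28 mutant and 3 Wild Type UMIs (ratio 7.77, 2.4 to 39.95), and *Y116A8C.3* 20 mutant and 2 Wild Type UMIs (ratio 8.33, 2.02 to 73.5). *Y116A8C.3* owed 15 of its 20 UMIs to 1 cell, without which the ratio was 2.096 (0.343 to 22.01), and *inos-1* 17 of 36, without which it was 5.31 (1.56 to 28.02).

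Of the genes lower in mutant progenitors, *F23A7.8* had 2288 CPM in mutant and 9865 CPM in Wild Type progenitors (ratio 0.232, 0.196 to 0.273), *rbm-3.2*, an RNA-binding protein gene, 1461 CPM in mutant and 6942 CPM in Wild Type progenitors (0.210, 0.171 to 0.258), and *F59C12.4* 937 CPM in mutant and 5787 CPM in Wild Type progenitors (0.162, 0.125 to 0.207). The ribosomal protein genes *rpl-41.2* (0.184), *rpl-41.1* (0.220) and *rpl-39* (0.201) moved the same way, and the first 2 are near copies whose reads may have been split by the counting. Also lower were *ctf-8*, of a clamp loader for cohesion (0.159), *ucr-2.1*, of respiratory complex III (0.196), *Y17G9B.2* (0.199), *moa-2* (0.181) and *C03D6.9* (0.175). In the other cells these 11 had ratios between 0.172 and 0.506. A single Wild Type cell of 5829 UMIs held 183 of the 675 UMIs of *F23A7.8*, 114 of the 475 of *rbm-3.2* and 136 of the 396 of *F59C12.4*, and without it the ratios were 0.291, 0.253 and 0.226. All 11 were also lower in the free RNA of the mutants, as *F23A7.8* was with 2939 CPM in the mutants and 7915 CPM in Wild Type.

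The ribosomal protein genes as a whole were at 0.822 (0.789 to 0.857) in progenitors, with 17 of 79 over 2-fold lower and 1 higher, and at 0.653 (0.646 to 0.660) in the other cells. Transcripts of the mitochondrial genome went the other way, at 16504 CPM in mutant and 6021 CPM in Wild Type progenitors (ratio 2.74, 2.45 to 3.07), with 9 of 11 genes over 2-fold higher. *atp-6* had a ratio of 5.72 (4.04 to 8.31), *ctc-3* of 5.76 (4.03 to 8.46) and *nduo-6* of 1.26 (1.03 to 1.55). The list stood at 2.98 in the other cells (2.90 to 3.07). Free RNA had 29640 CPM of it in the mutants and 10602 CPM in Wild Type.

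**Figure D5:**
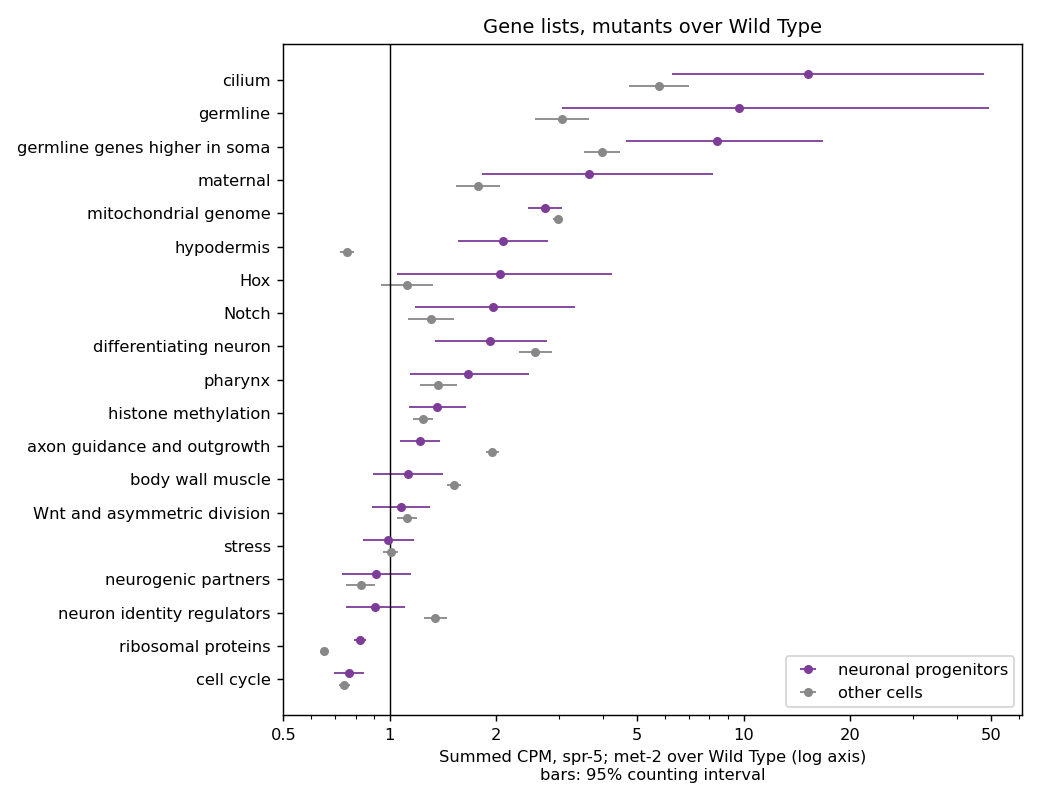
The x axis is the summed CPM of each gene list in spr-5; met-2 over Wild Type (log axis) with the 95% counting interval, in neuronal progenitors (purple) and in the other cells (grey). The lists run from cilium genes (15.2 in progenitors) to cell cycle genes (0.766), the neurogenic partners and identity regulators lie near 1, and the hypodermis list is above 1 in progenitors and below 1 in other cells.

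The remaining lists held few UMIs or small ratios. The Notch list was 1.96 times as high in mutant progenitors (1.18 to 3.34, 54 mutant and 23 Wild Type UMIs) and 1.31 times in other cells (1.12 to 1.52), with its transcription factor gene *lag-1* at 14 mutant and 4 Wild Type UMIs. With the 5 bHLH genes the Notch ratio in progenitors was 1.39 (0.902 to 2.16) and at a threshold of 2 it was 1.44 (0.942 to 2.22). The Hox list was at 2.05 (1.05 to 4.26, 32 mutant and 13 Wild Type UMIs) in progenitors and 1.12 (0.941 to 1.32) in other cells, mostly *ceh-13* (15 mutant and 7 Wild Type UMIs) and *nob-1* (11 mutant and 6 Wild Type UMIs). Wnt and asymmetric division genes had 1.07 (0.888 to 1.30), with *ham-1* at 1.01 (0.6996 to 1.48). Histone methylation genes had 1.36 (1.13 to 1.65) in progenitors and 1.24 (1.16 to 1.32) in other cells, with *met-1* at 1.60 (1.05 to 2.46) and *set-16* at 1.85 (1.10 to 3.22). Pharynx genes had 1.67 (1.14 to 2.47) in progenitors and 1.37 (1.21 to 1.55) in other cells, led by *ceh-34* (2.83, 1.37 to 6.43), and in progenitors 4.77 (1.17 to 42) after thinning, 1.22 (0.770 to 1.98) at a threshold of 3.5 and 1.33 (0.685 to 2.58) in the 2 main clusters. Body wall muscle genes (1.12, 0.895 to 1.42), glial genes (0.944, 0.443 to 2.03) and stress genes (0.990, 0.838 to 1.17) had intervals that included 1. For muscle this depended on the rule, with 1.79 (1.33 to 2.42) for the 5 genes other than bHLH, 1.72 (1.15 to 2.6) in the 2 main clusters and 0.785 (0.653 to 0.944) at a threshold of 2, and the other cells had 1.52 (1.45 to 1.59).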

How the data were processed

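The authors aligned 10x 3' reads to ce11 with Cell Ranger 3.0.2, and the deposited matrices hold whole UMI counts per gene, unfiltered and not normalized (Seurat, which the authors also used, has no version in the sources used here). Cells were the 686 mutant and 219 Wild Type barcodes of highest UMI count, the numbers in the labels, and 3 mutant barcodes tied for the last place. Counts were summed over cells and scaled to CPM in Python 3.11.15 with numpy 2.4.6, scipy 1.17.1 and pandas 2.3.3. Genes needed 20 UMIs in progenitors. Ratios have exact conditional binomial intervals, CPM Poisson intervals and shares Clopper-Pearson intervals, all at 95%. Clusters came from Scanpy 1.11.5 (2000 variable genes, 20 components, 15 neighbours, resolution 1), without the 10 genes and the germline genes the study selected. Doublets were kept, and Scrublet marked 2 mutant cells, 1 of them a progenitor, and 11 Wild Type cells. Coordinates are from Ensembl release 115. Named were the 10 genes, the 12 most changed in each direction between genotypes that kept direction with equal cell weights and without cells over 10000 UMIs, the 20 highest in progenitors of both libraries, and the top 4 of each list. Examples beyond these were chosen after their values were seen. The members and lists were chosen with earlier results of these data known. The steps were tested on simulated data. Alternatives changed the cells, the rule, thinning, weights, scaling, filter and pseudocount.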

Additional observations from a re-analysis of the deposited data

Results flagged for a closer look

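The hypodermis list moved in opposite directions between the genotypes, at 2.08 (1.56 to 2.80) in progenitors and 0.758 (0.724 to 0.794) in the other cells. *dpy-14* did the same, at 10.7 (4.34 to 33.9) in progenitors and 0.763 (0.720 to 0.809) in the other cells. Both depended on the rule. With the 5 bHLH genes the list was at 0.673 in progenitors and *dpy-14* at -1.33 on the log2 scale, and with the 5 other genes the list was at 0.759 and *dpy-14* at -0.028. Axon guidance genes lay below the other cells in mutant progenitors (0.915, 0.838 to 0.996) and above them in Wild Type progenitors (1.46, 1.32 to 1.62). In the mutants the interval included 1 with the 5 bHLH genes (0.962, 0.886 to 1.04), and in Wild Type the list was at 0.971 (0.683 to 1.34) after thinning. With 1 library per genotype none of these 3 differences was tested, and each is a comparison of libraries.

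Barcodes outside the cells carried the 10 genes of the rule. In those with at most 200 UMIs they stood at 860 CPM in the mutants and 1177 CPM in Wild Type, above the cells that were not progenitors, which had 435 CPM in the mutants and 592 CPM in Wild Type. The latter are the cells left after the rule took out those richest in these genes. Their lower level is therefore set in part by the choice.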

How the results depend on the processing

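With 1 library per genotype no replicate could be left out. No paired analysis was possible because each genotype had a single library and no test was run. Of the named gene values under all alternatives 627 stayed close, 127 moved and 14 turned direction, and of the list values 350, 105 and 6. Without the cells that Scrublet marked the germline list in Wild Type progenitors over other cells was 0.479 (0.0966 to 1.45), against 0.212. The alternative that kept only progenitors of the 2 main clusters was chosen after seeing the data.

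The mutant share of progenitors was 8.40% after thinning to 500 UMIs, 8.31% at a threshold of 3.5, 6.71% with at least 3 UMIs of the 10 genes and 2.92% with the 5 genes other than bHLH, and the Wild Type share was 8.22% at a threshold of 3.5 and 8.68% with the 5 other genes. Genes higher in mutant progenitors numbered 30 after thinning, 111 at a threshold of 3.5, about 1.0e+02 with the 5 other genes, 37 with at least 50 UMIs per gene, 468 with at least 10 and 77 in the 2 clusters, and genes lower numbered 38 after thinning, 62 with at least 50 UMIs and 289 with at least 10. Thinning leaves fewer genes tested. Genes higher than other cells in both libraries numbered 2 after thinning, 13 at a threshold of 3.5, 10 with the 5 other genes, 8 with at least 50 UMIs and 37 with at least 10, and genes lower in both 2, 11, 11, 6 and 46 under the same settings, 12 with the 5 bHLH genes and 13 in the 2 clusters.

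For progenitors over other cells, the neurogenic list was 1.25 in the mutants with the 5 other genes, and in Wild Type 1.26 after thinning and 1.30 with the bHLH genes. The axon list turned to 1.03 in the mutants with the 5 other genes and to 0.971 in Wild Type after thinning. The cilium list turned to 0.974 in the mutants with the bHLH genes and to 0.561 in the 2 clusters. The hypodermis list in the mutants was 0.900 after thinning, 0.634 at a threshold of 2, 0.805 with the bHLH genes, 0.949 with the 5 other genes and 0.383 in the 2 clusters, and in Wild Type 0.594 after thinning, 0.394 at a threshold of 2, 0.920 with the bHLH genes, 0.945 with the 5 other genes and 0.295 with cells weighted equally.

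For mutant over Wild Type progenitors, the cilium list was 5.81 with the bHLH genes, 4.78 with the 5 other genes and 4.3 in the 2 clusters, and the cell cycle list 0.898 with the 5 other genes and 0.947 in the 2 clusters. The hypodermis list was 1.22 at a threshold of 2 and turned to 0.673 with the bHLH genes and 0.759 with the 5 other genes. The list of germline genes that the study selected was 4.24 after thinning. On the log2 scale *dig-1* turned to -0.31 with the 5 other genes, *dpy-14* to -1.33 with the bHLH genes and -0.028 with the 5 other genes, and *Y116A8C.3* to -1.61 in the 2 clusters. For progenitors over other cells, *lin-11* turned to -2.07 in Wild Type with the bHLH genes, *Y62E10A.24* in Wild Type to -0.13 after thinning and -0.16 with the 5 other genes, and *C01G10.9* in the mutants to -2.58 after thinning and -1.11 with the 5 other genes and in Wild Type to -0.17 with the 5 other genes. With the 5 other genes *unc-39* turned to -1.93 in the mutants and -0.73 in Wild Type, *ari-1.4* to -0.41 and *R11G1.7* to -0.057 in the mutants. The cause of these changes was not tested.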
